A study of Oryza sativa Japonica Group with 17 samples.

Results

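The genes described here act in DNA replication and cell division and were followed in rice roots: OsMCM2, OsMCM3, OsMCM4 and OsMCM7 of the replicative helicase, the sliding clamp gene OsPCNA, and the cyclin genes CYCB2-2 and CYCD2-2. They were taken by name, as genes whose annotated symbol or synonym is one of these 7. The 7 genes are 7 of 17905 genes that the array annotation gives a probe set of their own, and they hold 8 of the 57258 probe sets tested, since CYCB2-2 has 2. OsMCM3, OsPCNA and CYCB2-2 were among the genes called higher, and CYCD2-2 among those called lower, in the mean effect of loss of OsGS1;1. In that mean effect 6.87% of probe sets were called higher and 7.09% lower. It averages over mutant lines. In the NC2373 line, OsMCM3, OsPCNA and CYCB2-2 differed from their control by 0.04, 0.11 and -0.22 on the log2 scale, without a call. OsMCM2, OsMCM4, OsMCM7, OsPCNA and CYCB2-2 were called lower in loss of OsGS1;2, where 2.37% of probe sets were called lower. Which comparisons chose the 7 genes is not stated. They are treated as selected on values of these comparisons, so the differences between mutants and controls in these 7 genes are given as a description, with no test.

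Eukaryotic cells load the MCM2 to MCM7 proteins as a ring on replication origins before S phase, with the help of the origin recognition complex, and the activated ring unwinds DNA at the fork. PCNA is the clamp that holds DNA polymerases on the template. D-type cyclins act with CDKA kinases at entry into the division cycle, by phosphorylating the retinoblastoma-related protein, while B-type cyclins drive mitosis. In roots, transcripts of these genes are typically highest in the meristem at the tip, where cells divide.

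Each sample was a root sample of the cultivar Nipponbare (Oryza sativa Japonica Group), measured on 1 Affymetrix rice array, and plants of every group had grown in hydroponics for 18 days with 1 mM ammonium. OsGS1;1 and OsGS1;2 encode cytosolic glutamine synthetases, which join ammonium to glutamate. ND8037 homozygotes (n = 3) and NC2373 homozygotes (n = 2) carry OsGS1;1 insertions and segregated from different heterozygous lines. ND8037 null (n = 3) and NC2373 null (n = 3) are plants without the insertion that segregated from the same heterozygotes. The gs1;2 plants (n = 3) are homozygous for loss of OsGS1;2 and were set against wild type (n = 3). The labels give gs1;2 no segregated null, so the effect of its mutation and any other difference of those plants from wild type cannot be told apart.

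Levels are RMA signals on the log2 scale and are compared only for the same probe set within an array set. That the 6 ND8037 arrays form one such set is inferred from their signal distribution. Their mean signal was 5.36, and that of the other 11, taken as another set, was 5.93. The ND8037 line and its array set therefore cannot be told apart. The disrupted genes followed the labels. OsGS1;1 lay between 8.00 and 8.16 in ND8037 homozygotes against 9.96 to 10.77 in ND8037 null, and between 8.65 and 8.85 in NC2373 homozygotes against 11.80 to 12.50 in NC2373 null. OsGS1;2 lay between 6.86 and 7.21 in gs1;2 against 12.31 to 12.63 in wild type. Of the 9 root markers measured, the silicon transporter gene Lsi1 averaged 12.66 over the ND8037 set and 13.10 over the other set, and OsSCR1, at 3.41 and 3.94, was the lowest in both. The log2 of their summed signal was 13.87 to 13.98 in ND8037 homozygotes against 14.00 to 14.03 in ND8037 null. It was 14.12 to 14.26 in gs1;2 against 14.31 to 14.58 in wild type, and the ranges overlapped in NC2373. The sum is weighted to the brightest markers, Lsi1 and OsHAK5 (12.51 in the ND8037 set and 12.60 in the other), and says little of the weaker ones.

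In gs1;2 roots the helicase genes, OsPCNA and CYCB2-2 all lay below wild type, at 0.506 to 0.638 of its signal on the brightest probe set of each gene. In roots of ND8037 homozygotes the same 6 genes lay above their null, at 1.40 to 2.34 times its signal. In roots of NC2373 homozygotes they stayed near their null, at 0.857 to 1.08 times its signal. CYCD2-2 lay lower in each mutant. Each root sample mixes cell types, so fewer dividing cells and less RNA per cell cannot be told apart.

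**Figure D1:**
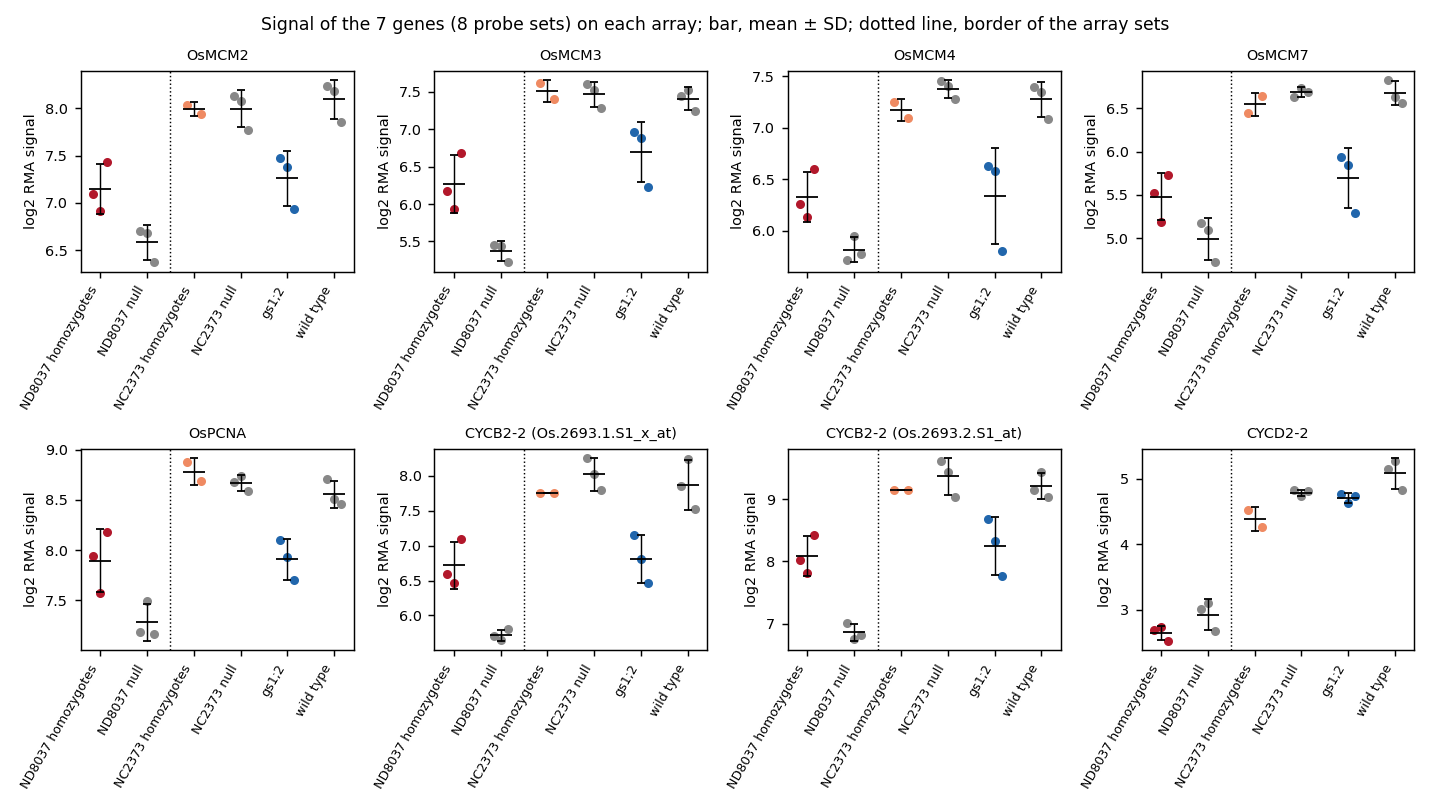
Log2 RMA signal (y axis) of each probe set on every array, by group (x axis). Points are arrays, black bars are the mean ± SD, and the dotted line parts the ND8037 arrays from the others, across which levels are not compared. In the 4 helicase panels, OsPCNA and both CYCB2-2 panels the gs1;2 arrays lie below all 8 other arrays of their set and the ND8037 homozygote arrays lie above ND8037 null.

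OsMCM2 (LOC4350526) encodes a subunit of the helicase ring. Its signal was 7.47, 7.38 and 6.93 in gs1;2, against 8.24, 8.18 and 7.86 in wild type. The groups did not overlap, and the difference was -0.84 (SE 0.165), a ratio of 0.560. In ND8037 it was 7.09, 6.91 and 7.43 in homozygotes, against 6.70, 6.68 and 6.37 in the null, a difference of 0.56 (SE 0.165) with every mutant array above every null array. NC2373 homozygotes gave 8.04 and 7.94, inside the range of NC2373 null at 8.13, 8.08 and 7.77, and the means differed by 0.00 at 2 decimals (SE 0.185).

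OsMCM3 (LOC4339099), another subunit of the ring, stood farthest from its null in ND8037 of the 4 helicase genes. The ND8037 homozygote arrays gave 6.17, 5.93 and 6.69, against 5.45, 5.44 and 5.22 in ND8037 null, a difference of 0.89 (SE 0.196) and a ratio of 1.86. In gs1;2 the values were 6.97, 6.88 and 6.23, against 7.45, 7.53 and 7.24 in wild type. All 3 gs1;2 arrays lay below wild type, by -0.71 on average (SE 0.196). The NC2373 homozygote arrays, at 7.62 and 7.41, overlapped NC2373 null at 7.61, 7.52 and 7.28, with a difference of 0.04 (SE 0.219).

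OsMCM4 (LOC107275673) and OsMCM7 (LOC4352514) are subunits of the core from which the helicase activity of the ring was first purified in animal cells. OsMCM4 had 6.63, 6.58 and 5.80 in gs1;2, against 7.39, 7.35 and 7.08 in wild type, a difference of -0.94 (SE 0.182). One gs1;2 array, sample 356, stood well below the others, and without it the difference was -0.67. In ND8037 the gene had 6.26, 6.13 and 6.60 in homozygotes, against 5.72, 5.95 and 5.77 in the null, a difference of 0.51 (SE 0.182) with no overlap. The 2 NC2373 homozygote arrays, at 7.25 and 7.09, lay below all 3 arrays of NC2373 null, at 7.45, 7.40 and 7.28, by -0.21 (SE 0.204).

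OsMCM7 had the lowest ratio to wild type of the 7 genes when each was taken by its brightest probe set, though the second probe set of CYCB2-2 lay lower still. Its signal was 5.94, 5.85 and 5.29 in gs1;2, against 6.83, 6.63 and 6.56 in wild type, a difference of -0.98 (SE 0.169) and a ratio of 0.506. In ND8037 homozygotes it was 5.52, 5.19 and 5.73, against 5.17, 5.09 and 4.72 in ND8037 null. These groups were separated by a narrow gap, and the means differed by 0.49 (SE 0.169). NC2373 homozygotes gave 6.45 and 6.64 against 6.63, 6.74 and 6.69 in NC2373 null, which overlap, with a difference of -0.14 (SE 0.189).

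OsPCNA (LOC4331062) had 8.10, 7.93 and 7.70 in gs1;2, against 8.71, 8.51 and 8.46 in wild type. The difference was -0.65 (SE 0.146), a ratio of 0.638, with no overlap. In ND8037 homozygotes it had 7.94, 7.57 and 8.18, against 7.19, 7.49 and 7.17 in ND8037 null, a difference of 0.62 (SE 0.146), again with no overlap. The NC2373 homozygote arrays gave 8.88 and 8.69 against 8.68, 8.74 and 8.59 in NC2373 null, where the ranges overlap and the difference was 0.11 (SE 0.163).

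CYCB2-2 (LOC4342121) is a B2-type mitotic cyclin, known in rice to bind a B-type cyclin-dependent kinase. Its brighter probe set gave 8.02, 7.81 and 8.43 in ND8037 homozygotes, against 7.01, 6.76 and 6.81 in ND8037 null. The lowest mutant array lay well above the highest null array, and the difference of 1.23 (SE 0.212), a ratio of 2.34, was the largest among the 7 genes in that line. In gs1;2 it gave 8.68, 8.32 and 7.76, against 9.15, 9.44 and 9.03 in wild type, a difference of -0.95 (SE 0.212). Both NC2373 homozygote arrays gave 9.14, within the NC2373 null values of 9.61, 9.44 and 9.04, and the difference was -0.22 (SE 0.237). The second probe set, of a type that can also bind related transcripts, differed by 1.00 in ND8037 (SE 0.203), by -1.06 in gs1;2 (SE 0.203) and by -0.27 in NC2373 (SE 0.227), so both probe sets gave the same direction in each comparison.

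CYCD2-2 (LOC4343936), a D-type cyclin, did not follow the other 6. Its signal was 2.69, 2.74 and 2.53 in ND8037 homozygotes, against 3.02, 3.10 and 2.67 in ND8037 null, which overlap and differ by -0.28 (SE 0.127). It was 4.52 and 4.26 in NC2373 homozygotes, against 4.82, 4.73 and 4.81 in NC2373 null, and 4.77, 4.63 and 4.73 in gs1;2, against 5.15, 5.27 and 4.82 in wild type. In those comparisons no mutant array reached the lowest control array, and the differences were -0.40 (SE 0.142) and -0.37 (SE 0.127). With NC2373 null in place of wild type as the control of gs1;2, a choice made after seeing the data, the CYCD2-2 difference was -0.08. The gene's signal is near the low end of the arrays. In the ND8037 set 15.2% of probe sets lay below it, and in the other set 40.9%.

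**Figure D2:**
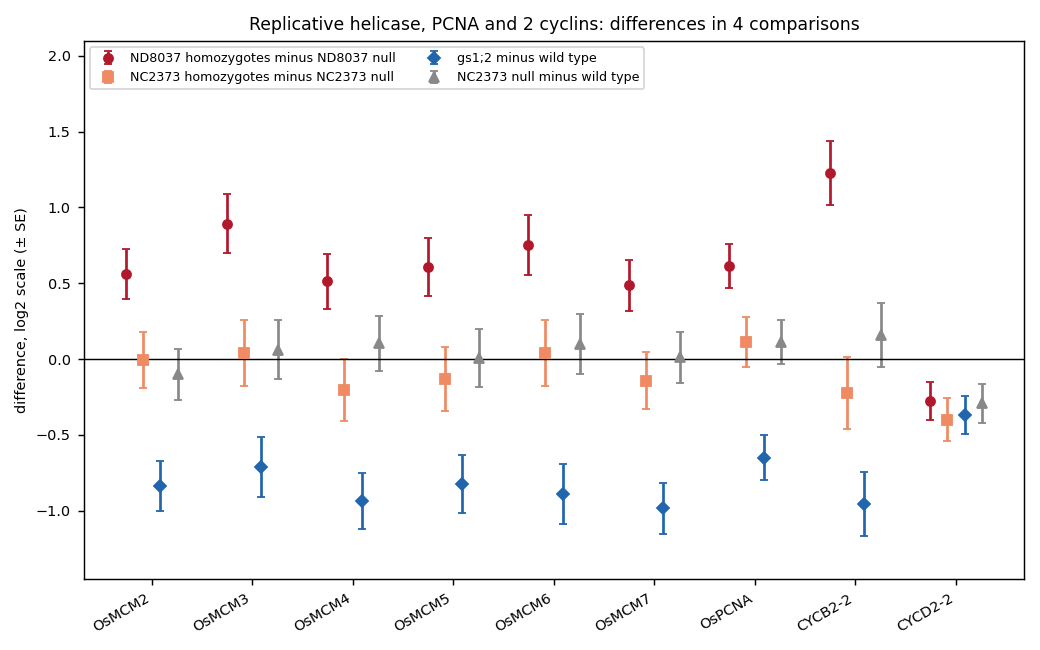
Difference in log2 signal (y axis, points ± SE of limma) of the 6 subunits of the helicase ring, OsPCNA, CYCB2-2 and CYCD2-2 (x axis) in 4 comparisons, with OsMCM5 and OsMCM6 added to complete the ring. From OsMCM2 to CYCB2-2 the ND8037 points lie above 0 and the gs1;2 points below 0, while CYCD2-2 lies below 0 in all 4.

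Counted over the 7 genes, limma called 5 lower in gs1;2, all but OsMCM3 and CYCD2-2, where 2.37% of all probe sets were called lower. All 7 lay below wild type with no overlap, against 11.7% of probe sets. In ND8037 4 were called higher (OsMCM2, OsMCM3, OsPCNA and CYCB2-2), against 4.40% of probe sets, and the 6 genes other than CYCD2-2 lay above the null with no overlap, against 11.9%. In NC2373 limma called none, where 7.65% of probe sets were called in either direction. There 1 of the 7 had an unadjusted p under 0.05, and the share of all probe sets with such a p is not given. OsMCM4 and CYCD2-2 lay below the null with no overlap there, against 20.0% of probe sets. Since these comparisons are taken to have chosen the genes, the counts describe the choice. They also moved with single arrays. The gs1;2 count was 2 without sample 356 or without wild type sample 627 or 628, and 3 without sample 355. The ND8037 count was 2 without homozygote sample 123 or 125 or without null sample 156, 1 without null sample 158, and 6 without gs1;2 sample 356, which enters only through the shared spread. When the fit held the compared groups alone, the gs1;2 count was 0 and the ND8037 count 2.

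Among the 11 arrays outside ND8037, the gs1;2 arrays lay below all 8 arrays of wild type, NC2373 null and NC2373 homozygotes for 6 of the 7 genes, against 4.60% of probe sets. The other 3 groups were close together for these 6 genes. OsMCM2, for example, averaged 7.99 ± 0.08 in NC2373 homozygotes (SD, n = 2), 7.99 ± 0.20 in NC2373 null (SD, n = 3) and 8.10 ± 0.21 in wild type (SD, n = 3), with overlapping ranges, and 7.26 ± 0.29 in gs1;2 (SD, n = 3). For CYCD2-2 the order was different. NC2373 homozygotes were lowest at 4.39 ± 0.18, then came gs1;2 at 4.71 ± 0.08 and NC2373 null at 4.79 ± 0.05, whose ranges overlap, and wild type was highest at 5.08 ± 0.24.

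How far plants without an insertion stood from wild type is not among the comparisons taken to have chosen the genes. It shares its arrays with the NC2373 and gs1;2 comparisons, so its values for the 7 are not independent of the choice and are also a description. NC2373 null minus wild type was between -0.10 and 0.16 for the helicase genes, OsPCNA and CYCB2-2 and -0.29 for CYCD2-2, with limma adjusted p from 0.34 for CYCD2-2 to 0.99 for OsMCM7. None of the 7 was called, where 0.913% of probe sets were called in either direction. An unadjusted limma p under 0.05 held for 1 of the 7, and the share of all probe sets with such a p is not given. For none of the 7 did NC2373 null lie wholly above or below wild type, against 7.17% of probe sets above and 8.26% below. With NC2373 null as the control of gs1;2, the differences of the 6 genes ran from -1.11 to -0.73, against -0.98 to -0.65 with wild type.

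The effect of loss of OsGS1;1 in ND8037 minus that in NC2373 was between 0.50 and 1.45 for the 6 genes and 0.12 for CYCD2-2. Limma called none of the 7 in this difference, where 0.00873% of probe sets were called. Of the 7, 6 had an unadjusted p under 0.05, and the share of all probe sets with such a p is not given. The difference is made of the effects on which the genes are taken to have been chosen, so it is also a description.

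Arrays of one group differed from each other in the same way for most of the 7 genes. Of the gs1;2 arrays, sample 354 was highest for all 7 and sample 356 lowest for 6. In ND8037 homozygotes sample 125 was highest and sample 124 lowest for 6 of 7, and in wild type sample 629 was lowest for all 7. Measured from the wild type mean, the median over the 6 genes was -0.58 in sample 354, -0.71 in sample 355 and -1.28 in sample 356. From the ND8037 null mean it was 0.60 in homozygote sample 123, 0.32 in sample 124 and 0.87 in sample 125. Across the 17 arrays, after each group's mean was taken off, the 15 pairs among the 6 genes had Pearson r from 0.61 to 0.95, with a median of 0.81, while the 6 pairs with CYCD2-2 had r from 0.07 to 0.30. These r values are a description, since all genes share the same arrays and RNA.

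**Figure D3:**
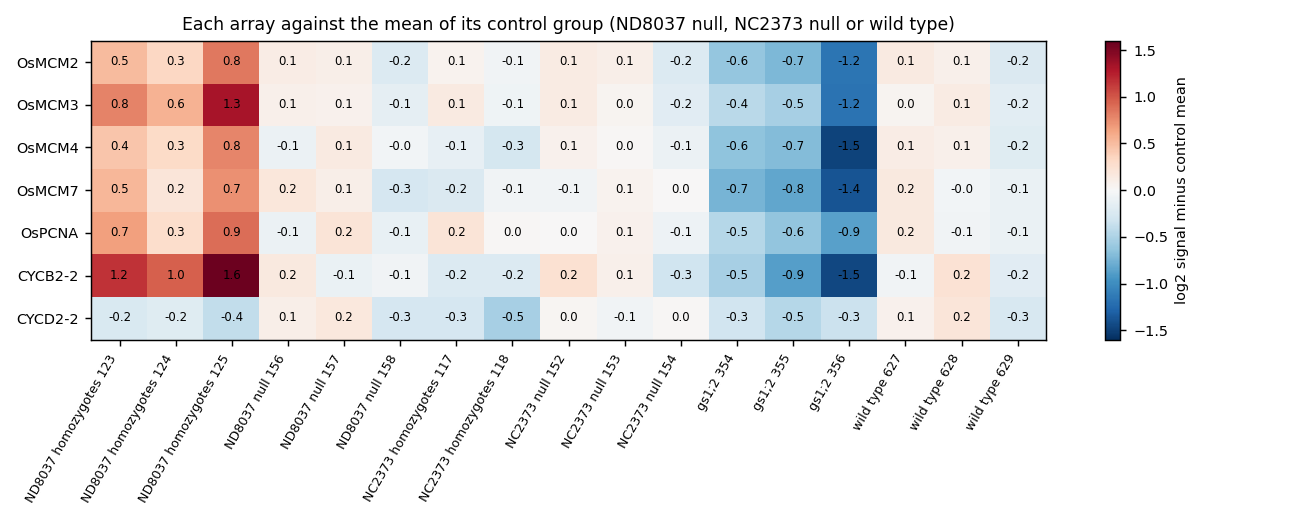
Log2 signal of each of the 7 genes (rows) on each of the 17 arrays (columns, by group and sample number), minus the mean of that array's control group, as colour and number. Rows other than CYCD2-2 run blue over the gs1;2 arrays, deepest in sample 356, and red over ND8037 homozygotes, deepest in sample 125.

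Signs of other tissue and of RNA quality were set beside these values. The log2 of the summed signal of 8 leaf markers, among them genes of Rubisco and chlorophyll-binding proteins, was 13.96 to 14.88 in ND8037 homozygotes against 13.03 to 13.58 in ND8037 null. It was 14.88 to 15.22 in NC2373 homozygotes against 13.20 to 13.88 in NC2373 null. In gs1;2 it was 10.82 to 11.96, against 11.67 to 13.12 in wild type. Limma called 2 of the 8 higher in ND8037 homozygotes and 5 in NC2373 homozygotes against their nulls, where 4.40% and 4.07% of probe sets were called higher. It called 3 higher in NC2373 null against wild type, where 0.913% were called in either direction, and none in gs1;2. Of the 9 root markers, limma called 1 higher in NC2373 homozygotes and 1 lower in gs1;2, where 2.37% of probe sets were called lower. It called no root marker in ND8037 homozygotes or in NC2373 null against wild type. RBCS-A was the lowest of the 8 leaf markers, with 0.950% of probe sets below it in the ND8037 set and 3.91% in the other set. CAB2R was the brightest, at 13.03 and 12.17, and weighs most in their sum. The 3' minus 5' signal of actin averaged 4.87 in ND8037 homozygotes against 4.84 in ND8037 null, 2.85 in NC2373 homozygotes against 2.83 in NC2373 null, and 2.91 in gs1;2 against 2.81 in wild type, with overlapping ranges in each pair. That of GAPDH averaged 0.07 in ND8037 homozygotes against -0.18 in ND8037 null, 0.34 in NC2373 homozygotes against 0.25 in NC2373 null, and 0.43 in gs1;2 against 0.25 in wild type, again with overlapping ranges. Between the array sets the actin value differed, at 4.75 to 4.99 on the ND8037 arrays and 2.70 to 3.02 on the others. The part of tissue makeup or RNA quality in the 7 genes' differences, or in the difference between lines, was not tested.

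The other subunits of the helicase ring were not among the 7, but are read in the same comparisons and arrays. Their signals follow the mean profile of the 4 helicase genes and OsPCNA (r = 0.974 for OsMCM6 and 0.968 for OsMCM5). Their p values are therefore not independent of the choice of the 7. OsMCM6 averaged 5.38 ± 0.45 in gs1;2 against 6.27 ± 0.11 in wild type (SD, n = 3 each) and fell by 0.89 on the log2 scale (SE 0.197, limma adjusted p = 0.0211). OsMCM5 averaged 6.69 ± 0.43 in gs1;2 against 7.51 ± 0.16 in wild type (SD, n = 3 each) and fell by 0.82 (SE 0.191, limma adjusted p = 0.0259). In ND8037, OsMCM6 averaged 5.31 ± 0.20 in homozygotes against 4.56 ± 0.35 in the null (SD, n = 3 each) and rose by 0.75 (SE 0.197, limma adjusted p = 0.0288). OsMCM5 differed by 0.61 there and was not called (limma adjusted p = 0.0595). In NC2373 neither was called, at 0.04 for OsMCM6 and -0.13 for OsMCM5. The calls in gs1;2 were lost for both genes without sample 356 or without wild type sample 627 or 628, and that of OsMCM6 in ND8037 without homozygote sample 123 or 125 or null sample 158, with limma adjusted p of at most 0.121 over the single arrays left out.

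A list of 78 further replication and cell cycle genes, gathered by name roots, shows the surroundings of the 7. In gs1;2, limma called none of the 78 higher and 10 lower, where 1.67% of all probe sets were called higher and 2.37% lower. An unadjusted limma p under 0.05 held for 1 higher and 39 lower genes there. It held for 26 higher and 12 lower in ND8037 and for 11 higher and 13 lower in NC2373. The share of all probe sets with such a p is not given, so these unadjusted counts have no background beside them. The list's median difference was -0.18, against 0.02 over all probe sets, and 21 of the 78 lay below all 8 other arrays of the set, against 4.60% of probe sets. In ND8037 homozygotes, 13 rose and 4 fell, where 4.40% of probe sets were called higher and 4.68% lower, with a median of 0.10 against -0.04 over all probe sets. In NC2373 homozygotes, 4 rose and 7 fell, where 4.07% of probe sets were called higher and 3.58% lower, with a median of -0.06 against -0.02. Limma called none of the 78 in NC2373 null minus wild type, where an unadjusted p under 0.05 held for 4 higher and 6 lower genes. It also called none in the ND8037 effect minus the NC2373 effect, where 25 higher and 6 lower genes had such a p. Single arrays moved these counts. The 10 calls in gs1;2 were 2 without sample 356 or wild type sample 628, 3 without wild type sample 627 and 6 without sample 355. The 17 calls in ND8037 were 7 without homozygote sample 123 or null sample 157, 8 without null sample 158 and 9 without homozygote sample 125. The 11 calls in NC2373 were 1 without homozygote sample 117, 2 without homozygote sample 118, 3 without null sample 152, 5 without null sample 153 and 7 without null sample 154 or gs1;2 sample 355 or 356. When the fit held the compared groups alone, the counts were 1 in gs1;2, 10 in ND8037 and 4 in NC2373.

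Genes of the replication fork were among those that fell in gs1;2. OsRPA70b and OsRPA32, subunits of the replication protein A that coats single-stranded DNA, fell by 1.09 (SE 0.236, limma adjusted p = 0.0192) and by 0.92 (SE 0.169, limma adjusted p = 0.00821). OspolD2, a subunit of DNA polymerase delta, fell by 0.49 (SE 0.0842, limma adjusted p = 0.00555). The other 16 of 19 fork genes were not called there. In ND8037 homozygotes other subunits of replication protein A fell, OsRPA32-2 by 0.54 (SE 0.100, limma adjusted p = 0.00626) and OsRPA70a by 0.28 (SE 0.0824, limma adjusted p = 0.0458). OsRFC1, a subunit of the complex that loads PCNA on DNA, fell by 0.28 in NC2373 homozygotes (SE 0.0778, limma adjusted p = 0.0416) and by 0.27 in ND8037 homozygotes (limma adjusted p = 0.0278). OsTOP6A3, named as a subunit A of topoisomerase VI, rose by 1.58 in NC2373 homozygotes (SE 0.331, limma adjusted p = 0.0101) and by 1.16 in ND8037 homozygotes (SE 0.296, limma adjusted p = 0.0258), where the arrays overlapped.

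Origin and nucleotide genes gave few calls. OsORC3, of the origin recognition complex, rose by 0.91 in ND8037 homozygotes (SE 0.254, limma adjusted p = 0.0370), and OsORC2 fell by 0.36 in NC2373 homozygotes (SE 0.0734, limma adjusted p = 0.00908). The signal of OsORC3 was low, at 4.33 in ND8037 homozygotes and 3.42 in ND8037 null, below that array set's median of 4.70. In gs1;2 the 5 origin genes ran from -0.86 to 0.03 and limma called none of them. Of these, 2 had an unadjusted p under 0.05, and the share of all probe sets with such a p is not given. TK, thymidine kinase of the nucleotide salvage route, rose by 0.50 in ND8037 homozygotes (SE 0.0738, limma adjusted p = 0.00226) and by 0.28 in NC2373 homozygotes (SE 0.0826, limma adjusted p = 0.0495), and differed by -0.17 in gs1;2 without a call.

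Histone genes gave calls in all 3 mutants. In ND8037 homozygotes, 4 of 6 rose, among them H2B.11 by 0.62 (SE 0.0929, limma adjusted p = 0.00244), H2B.5 by 0.50 (SE 0.101, limma adjusted p = 0.00945) and CenH3, the centromeric histone, by 0.61 (SE 0.150, limma adjusted p = 0.0228). In NC2373 homozygotes, H2B.10 rose by 0.56 (SE 0.127, limma adjusted p = 0.0158) and H2B.5 by 0.39 (SE 0.113, limma adjusted p = 0.0486). In gs1;2 CenH3 fell by 0.57 (SE 0.150, limma adjusted p = 0.0485), and the other 5 histone genes were not called. H2B genes are near-identical copies, so their probe sets may share signal and the values of single members are uncertain.

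Among the other A-, B- and D-type cyclins, CYCB1-1 and CYCA2-1 moved in opposite directions in gs1;2 and ND8037. CYCB1-1, a mitotic cyclin, fell by 0.86 in gs1;2 (SE 0.210, limma adjusted p = 0.0333) and rose by 0.84 in ND8037 homozygotes (SE 0.210, limma adjusted p = 0.0232). CYCA2-1 fell by 0.83 in gs1;2 (SE 0.193, limma adjusted p = 0.0270) and rose by 0.79 in ND8037 homozygotes (SE 0.193, limma adjusted p = 0.0208). CYCB2-1, the other B2-type cyclin, rose by 0.84 in ND8037 homozygotes (SE 0.231, limma adjusted p = 0.0360). In NC2373 homozygotes the calls fell on other cyclins, with differences of -1.17 for CYCD4-1 (SE 0.227, limma adjusted p = 0.00691), -0.74 for CYCB1-3 (SE 0.184, limma adjusted p = 0.0242) and -1.10 for the P-type CYCP4-1 (SE 0.292, limma adjusted p = 0.0335). The signal of CYCB1-3 was low, at 4.41 in NC2373 homozygotes and 5.15 in NC2373 null, below that array set's median of 5.38.

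CDKB2-1, the B-type kinase of mitosis, fell by 0.88 in gs1;2 (SE 0.175, limma adjusted p = 0.0124) and rose by 0.84 in ND8037 homozygotes (SE 0.175, limma adjusted p = 0.0105). CKS1, a kinase-binding subunit, rose by 0.55 in ND8037 homozygotes (SE 0.109, limma adjusted p = 0.00811). CDKE-1 fell by 1.04 in ND8037 homozygotes on its brighter probe set (SE 0.286, limma adjusted p = 0.0355), while its other probe set differed by -0.21 and was not called. CDKA-1, the kinase that works through the whole cycle, fell by 0.45 in NC2373 homozygotes (SE 0.125, limma adjusted p = 0.0397), and OsRBR2, a retinoblastoma-related protein, by 0.35 (SE 0.0921, limma adjusted p = 0.0316). KRP5, of the kinase inhibitor family, fell by 0.61 in gs1;2 (SE 0.140, limma adjusted p = 0.0263). In the mean effect over both lines, where 6.87% of probe sets were called higher and 7.09% lower, 8 of the 78 rose and 6 fell, and CYCH-1, a cyclin of the CDK-activating complex, was among those that fell, at -0.24 (limma adjusted p = 0.0199).

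**Figure D4:**
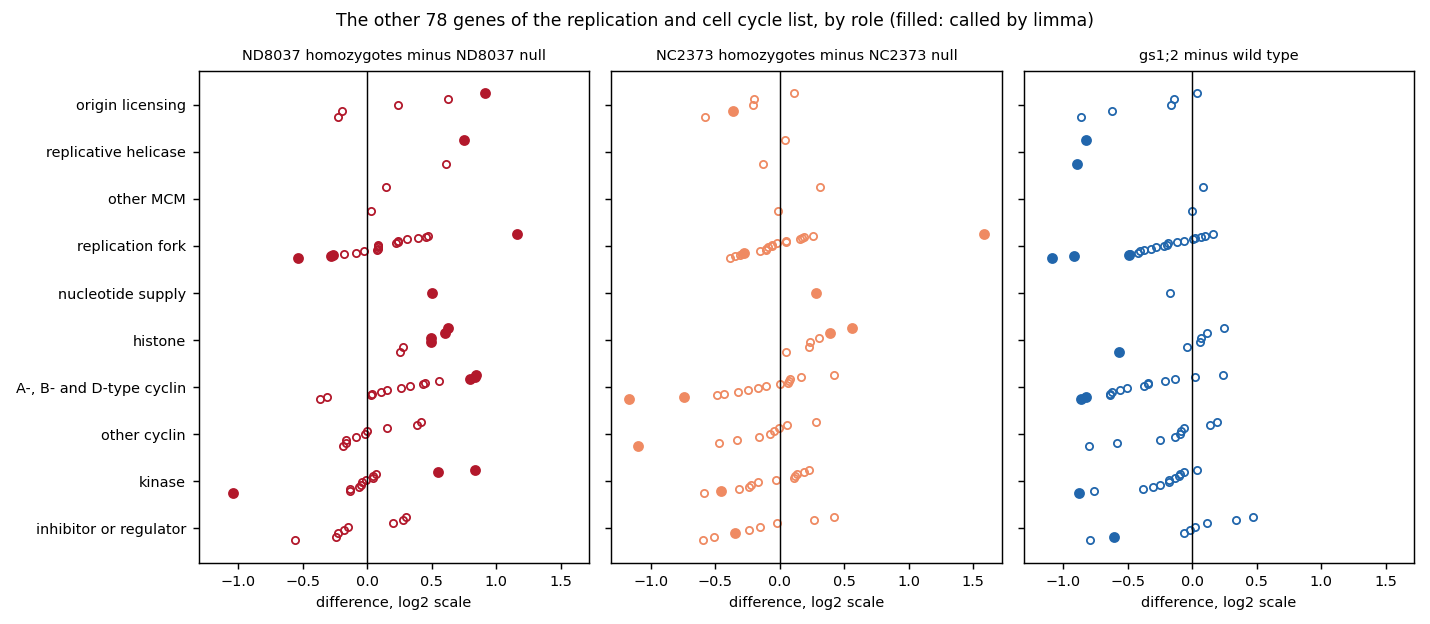
Difference in log2 signal (x axis) of the other 78 genes by role (y axis), 1 point per gene on its brightest probe set, in ND8037 homozygotes minus null, NC2373 homozygotes minus null and gs1;2 minus wild type. Filled points were called by limma. The gs1;2 panel has 10 filled points, all below 0, and the ND8037 panel has 13 above 0 and 4 below.

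Many of these calls rested on single arrays. Of the 10 genes called in gs1;2, OsRPA32 and OspolD2 kept the call whichever array was left out but not when the fit held the compared groups alone (limma adjusted p = 0.0931 and 0.0505), and the other 8 lost it without sample 356 and without wild type sample 628. Of the 15 genes described in ND8037 by the naming rule, 6 kept the call (CDKB2-1, CKS1, H2B.11, H2B.5, OsRPA32-2 and TK), and the other 9 lost it without homozygote sample 123. H2B.5 lost it when the fit held the compared groups alone (limma adjusted p = 0.0504). Each of the 11 called in NC2373 lost it without homozygote sample 117 or without sample 118, where 1 mutant array remained and was taken to vary like the other groups. The highest limma adjusted p over the single arrays left out was 0.225 in gs1;2, for CenH3, 0.169 in ND8037, for OsRPA70a, and 0.306 in NC2373, for TK. The call of CYCH-1 in the mean effect over both lines was lost without NC2373 homozygote sample 117 (limma adjusted p = 0.104).

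The genes whose pattern was most like that of the helicase genes and OsPCNA were sought among 2452 named genes, by Pearson r over the 17 arrays with the mean profile of these 5, after the mean of each array set was taken off. The 5 most alike were OsMCM6 (r = 0.974), KIN12C (r = 0.973), CDKB2-1 (r = 0.968), OsMCM5 (r = 0.968) and CMT3 (r = 0.967). KIN12C is named as a kinesin, a motor protein on microtubules, and CMT3 as a chromomethylase, which methylates DNA. KIN12C differed by 0.82 in ND8037, -0.23 in NC2373 and -0.88 in gs1;2. CMT3 differed by 0.99 in ND8037, 0.12 in NC2373 and -1.10 in gs1;2. Of the first 15 genes, 7 were on the list of replication and cell cycle genes, which holds 78 genes besides the members, while 2452 genes were ranked. KIN14R, KIN10A, KIN10B, KIN14N and KIN5C, also with kinesin names, were among the 15 too. The profile keeps the group differences of the 5 genes, so the ranking itself picks genes that differ in the same way. The r values share the 17 arrays, and both they and the differences of these genes are a description.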

How the data were processed

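The authors deposited a table of log2 values by probe set and sample. RMA is named in the submitters' processing notes, and its software version is not stated there. RMA removes background, brings the arrays of a run to one distribution and combines probes into probe set values, so levels compare only among arrays normalized together. That the ND8037 arrays were normalized apart is inferred from their signal distribution. The labels call the samples biological replicates. Groups came from sample titles, and samples are named by the numbers in them.

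The table has 57381 probe sets. Affymetrix controls (123) were dropped, and the remaining 57258 entered 1 limma fit (limma 3.58.1, R 4.3.3) with a mean for each of the 6 groups over 17 arrays, which left 11 residual degrees of freedom. Calls are two-sided, with Benjamini-Hochberg adjusted p under 0.05 over all tested probe sets. Counts of genes with an unadjusted limma p under 0.05 are given without the share over all probe sets. No filter on signal was used. Differences are log2 values with limma's SE, and ratios are on the linear scale. The number of arrays limits the precision. The fit was tested on simulated data with noise drawn independently for each probe set and array, so that test does not cover shifts that genes share on an array.

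Gene names came from the platform annotation and a RefSeq gene table. A gene with several probe sets is represented by the brightest. A list gathered 85 genes by name roots, 7 of them the genes described and 78 others. The 7 genes and the lists were chosen with earlier results of these data known. Named besides the 7 are up to 3 called genes per role and comparison, the disrupted genes and the 5 genes most alike in pattern. OsRFC1 in ND8037 was named after its values were seen. Alternatives were quantile normalization within each array set, median centring, other sets of arrays in the fit, a mean signal of at least 5, an intensity trend with a robust prior, array weights, averaged probe sets and leaving out each array. Plots used Python 3.11.15 and matplotlib 3.10.9.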

Additional observations from a re-analysis of the deposited data

Results flagged for a closer look

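For 12 of the genes named, every ND8037 homozygote array lay above the mean of its null and every NC2373 homozygote array lay below the mean of its own. The 12 were picked by these values from genes that were themselves named on values of the same comparisons. Their differences are therefore a description. The effect in ND8037 minus that in NC2373 was 1.61 for CYCD4-1, 1.48 for CYCP4-1, 1.45 for CYCB2-2, 1.27 for CYCB2-1, 1.12 for CYCA2-1, 1.06 for CDKB2-1 and 1.01 for CYCB1-1. It was 0.79 for CKS1, 0.78 for OsRPA32, 0.74 for OsMCM5, 0.72 for OsMCM4 and 0.63 for OsMCM7. Limma called this difference between lines in none of the 12, and the lines lie in different array sets. Over all probe sets 7.48% lay on opposite sides in this way and 7.71% the other way round. Among the 78 genes of the list, 20 lay so and 7 the other way.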

How the results depend on the processing

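No difference reported for the 7 genes changed sign where it was called. The OsMCM4 difference in gs1;2 was -0.67 without sample 356, against -0.94 with it, and the CYCD2-2 difference in gs1;2 was -0.08 with NC2373 null as the control, against -0.37. When the fit held the compared groups alone, probe sets called numbered 3213 in ND8037 against 5200 over all groups, 2189 in NC2373 against 4382, 615 in gs1;2 against 2310, 20 in NC2373 null minus wild type against 523 and 102 in the difference between lines against 5. With only the same array set they numbered 3213 in ND8037, 1360 in gs1;2 and 133 in NC2373 null minus wild type. The difference between lines gave 1 call after quantile normalization and 2 at a mean signal of at least 5. Among the 78 list genes, the fit of the compared groups called 10 in ND8037 against 17, 4 in NC2373 against 11, 1 in gs1;2 against 10 and 1 in the difference between lines against 0, and the fit of the same array set called 10 in ND8037 and 7 in NC2373. These fits hold fewer arrays. Leaving out each array in turn gave 2075 to 5546 calls in ND8037, 1525 to 4883 in NC2373, 555 to 2817 in gs1;2, 118 to 1036 in NC2373 null minus wild type, 5260 to 8261 in the mean gs1;1 effect and 1 to 141 in the difference between lines. For the 78 genes it gave 7 to 19, 1 to 10, 2 to 14, 0 to 1, 11 to 16 and 0 to 1 in the same order. The lowest counts over all probe sets came without homozygote sample 123 in ND8037, without homozygote sample 117 in NC2373 and without sample 356 in gs1;2. Over all settings and comparisons, the 7 genes lost a call 82 times out of 325 and gained one 10 times out of 712. Calls were lost 44 times out of 95 in the mean gs1;1 effect, 21 out of 100 in ND8037 and 17 out of 130 in gs1;2. These settings include fits that left 1 NC2373 homozygote array. The other genes named lost a call 199 times, gained one 3 times and did not change sign where called. No paired analysis was possible because each sample number belongs to 1 group. The values carry no detection calls, so whether CYCD2-2 lay above background was not tested, and sequences and positions are not given.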
